A study of Homo sapiens with 34 samples.

Results

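The genes described here are those encoded in the mitochondrial genome, taken as every gene of the deposited table whose symbol starts with "MT-". They numbered 30 of the 31975 genes in the table, against 37 mitochondrial genes in RefSeq. The 30 comprised 13 messenger RNA (mRNA) genes, both ribosomal RNA (rRNA) genes and 15 transfer RNA (tRNA) genes. By the promoter that transcribes them, 21 belonged to the heavy strand (12 mRNAs, 2 rRNAs and 7 tRNAs) and 9 to the light strand (MT-ND6 and 8 tRNAs).

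RNA of 34 established human lymphoma cell lines was sequenced, with 1 library per line made from total RNA. Per the labels, 11 lines came from mantle cell lymphoma (MCL), 3 from Burkitt lymphoma (BL) and 20 from diffuse large B-cell lymphoma (DLBCL), of which 6 were of the activated B-cell subtype (ABC) and 14 of the germinal centre B-cell subtype (GCB). No treatment was named for any line, and the libraries were generated at several times. The labels marked 30 lines as re-analysed and left Daudi (BL) and HBL-2, MAVER-1 and UPN1 (MCL) unmarked. The lines served as replicates of a pathology, so each p-value measures the spread between lines that were each seen in a single library.

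By ZNF593 the libraries were of 2 kinds. ZNF593, a nuclear gene used here only to tell the kinds apart, had 444 to 6561 reads in 25 libraries and 0 reads in the other 9, which were 8 of the 14 GCB DLBCL lines (DB, DOHH-2, Karpas422, NU-DHL-1, OCI-Ly1, OCI-Ly7, SU-DHL-6 and WSU-DLCL2) and the ABC DLBCL line NU-DUL-1. These kinds were read from the data and are not groups of the study. Reads recovered from the deposited values came to 60.1 to 109 M (M for 1000000 reads) per MCL library, 22.6 to 92.4 M per BL library, 81.2 to 165 M per ABC DLBCL library with ZNF593 reads and 70.8 to 108 M per GCB DLBCL library with them. The 8 GCB DLBCL libraries without ZNF593 reads held 2.55 to 4.84 M and NU-DUL-1 held 22.7 M. Levels are given in CPM, a gene's reads scaled to a library total of 1000000. Pathologies were therefore compared among the 25 libraries with ZNF593 reads, in which ABC DLBCL had 5 lines and GCB DLBCL 6 (HT, Pfeiffer, SU-DHL-10, SU-DHL-4, SU-DHL-5 and Toledo), and the kinds of library were compared within GCB DLBCL. MCL libraries are not shown to be alike in preparation to the others with ZNF593 reads, since PIMREG, a nuclear gene picked after its values were seen, had 785 to 4927 reads in MCL lines and at most 2 in the other 14 libraries with ZNF593 reads. The part of library preparation in the MCL differences was not tested. The B-cell markers MS4A1, CD79A, CD79B and PAX5 summed to 1036 to 5362 CPM over the 34 lines, and none of them was at 0 throughout a group. CCND1, the cyclin whose overexpression defines MCL, lay between 12.59 and 17.35 log2 units in MCL lines and at most at 10.43 elsewhere. Among the BL lines Daudi stood apart in many mitochondrial genes, and its values are given separately.

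Human mitochondrial DNA is transcribed from both strands into long precursors. Most of the genes, among them both rRNAs and all but a single mRNA, are read from the heavy strand promoter, whereas the light strand promoter serves MT-ND6 and a minority of the tRNAs. The tRNAs lie between the other genes and are cut out of the precursors, which releases the mRNAs and rRNAs. The mRNAs encode core subunits of respiratory complex I (the ND genes), complex III (MT-CYB) and complex IV (the CO genes) and of the ATP synthase, complex V (the ATP genes), and the light strand precursor is known to be degraded for the most part.

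By their medians, mitochondrial genes took a smaller share of reads in MCL and BL lines than in DLBCL lines with ZNF593 reads. The 30 genes together took 4.78% (UPN1) to 11.6% (Jeko-1) of the reads in MCL lines, with a median of 6.09%. The MCL lines not marked as re-analysed, UPN1 (4.78%), HBL-2 (5.53%) and MAVER-1 (6.09%), lay at or below this median. The median of the re-analysed MCL lines alone was higher and is given at the end. The 30 genes took 4.62% in Daudi, 5.60% in Raji and 6.08% in Ramos. In ABC DLBCL lines the share ran from 11.3% to 14.9% with a median of 12.5%, and in GCB DLBCL lines with ZNF593 reads from 9.34% to 13.1% with a median of 12.1%. All 3 BL lines lay below every DLBCL line with ZNF593 reads, while the MCL range overlapped that of ABC DLBCL through Jeko-1 and that of GCB DLBCL through Jeko-1 and SP-53. In bulk RNA a lower share of reads from less mitochondrial RNA per cell and from more of other RNA cannot be told apart.

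The 13 mRNAs supplied most of these reads and the 2 rRNAs most of the rest. The mRNAs took 3.64% to 8.41% of the reads in MCL lines (median 5.12%), 3.80% to 4.81% in BL lines (median 4.11%), 8.38% to 11.02% in ABC DLBCL lines (median 10.4%) and 7.01% to 9.90% in GCB DLBCL lines with ZNF593 reads (median 9.18%). The rRNAs took 0.408% (HBL-2) to 3.16% (Jeko-1) in MCL lines, with a median of 1.50%. The rRNA medians were 1.27% in BL, 2.88% in ABC DLBCL and 2.93% in GCB DLBCL lines with ZNF593 reads. How rRNA was treated when the libraries were made is not given in the sources used here.

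**Figure D1:**
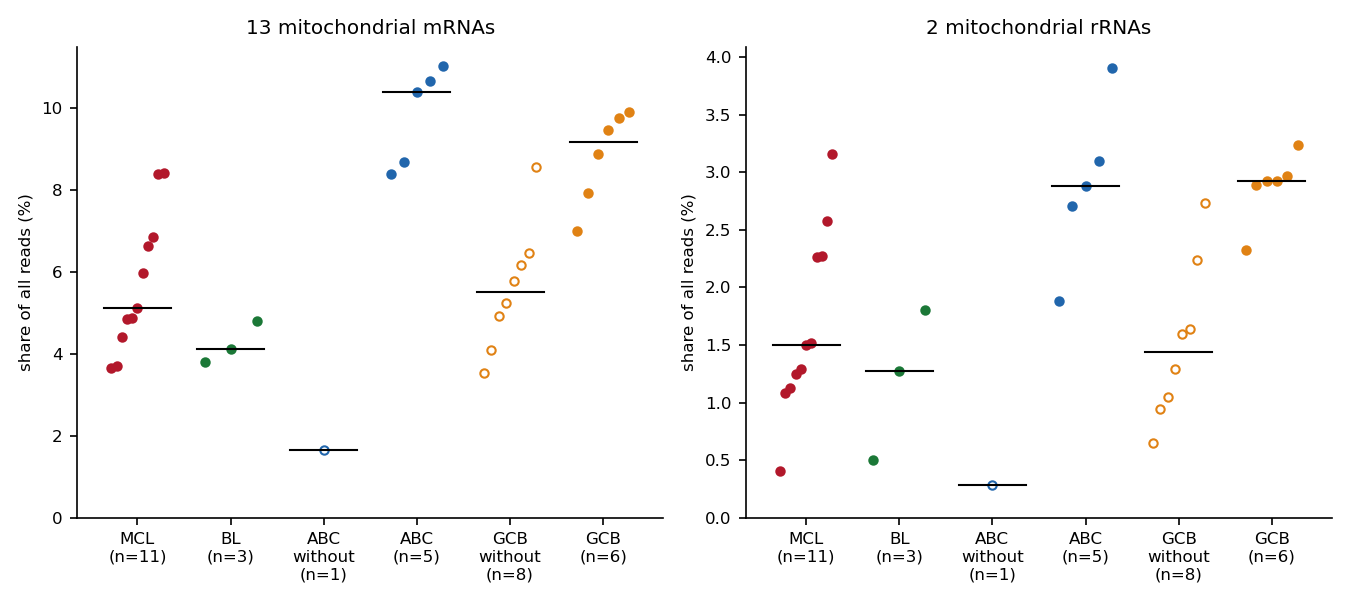
Share of all reads, in percent, taken by the 13 mitochondrial mRNAs (left) and the 2 mitochondrial rRNAs (right) in each line. Each dot is a line, filled where the library has ZNF593 reads and open where it has none, dots are spread sideways by value, and the horizontal line is the group's median (mRNA medians 5.12% in MCL, 4.11% in BL, 10.4% in ABC DLBCL and 9.18% in GCB DLBCL with ZNF593 reads).

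MT-ND6, a complex I subunit and the sole mRNA of the light strand, lies at MT:14149-14673 (RefSeq GRCh38.p14, exonic over its whole length, as a gene without introns). MT-ND6 had 15.8 CPM in MAVER-1, the lowest MCL line, a median of 45.6 and a highest value of 89.9 in Jeko-1. It had 24.8 in Raji, 27.2 in Ramos and 127 in Daudi. ABC DLBCL lines had 112 (SU-DHL-8), 134 (MD903), 142 (HBL-1), 195 (OCI-Ly10) and 278 (OCI-Ly3), and GCB DLBCL lines with ZNF593 reads ran from 183 (SU-DHL-5) over a median of 239 to 261 (Pfeiffer). Every MCL line lay below every DLBCL line with ZNF593 reads, whereas Daudi lay within the ABC DLBCL range and the other BL lines within the MCL range. Whether reads were counted by strand is not given in the sources used here, so reads of MT-ND6 and of heavy strand RNA running across the same positions cannot be told apart.

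The MT-ND6 difference between MCL and DLBCL passed the test. On the deposited log2 scale MT-ND6 was lower by 2.12 in MCL than in ABC DLBCL (log2 difference -2.12 ± 0.41 SE, limma adjusted p = 0.0138) and by 2.52 than in GCB DLBCL (-2.52 ± 0.39, limma adjusted p = 0.00113). The ratio of the median levels was 3.10 for ABC DLBCL over MCL and 5.23 for GCB DLBCL over MCL. BL against GCB DLBCL gave -2.38 ± 0.54 (limma adjusted p = 0.0952) and BL against ABC DLBCL gave -1.99 ± 0.56 (limma adjusted p = 0.110). MCL against BL gave -0.14 ± 0.50 (limma adjusted p = 0.952) and ABC against GCB DLBCL -0.40 ± 0.46 (limma adjusted p = 0.867). The call in MCL against GCB DLBCL held in all 25 fits that left out a line, and that in MCL against ABC DLBCL in 24 of 25, with an adjusted p of 0.0510 without OCI-Ly10.

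MT-ND6 also made up a smaller part of the mitochondrial mRNA reads in every MCL line than in any GCB DLBCL line. Its share of the reads of the 13 mRNAs was 0.0327% (MAVER-1) to 0.123% (UPN1) in MCL lines, with a median of 0.0840%. It was 0.0567% in Ramos, 0.0653% in Raji and 0.309% in Daudi. The share was 0.108% (SU-DHL-8) to 0.261% (OCI-Ly3) in ABC DLBCL lines and 0.188% (SU-DHL-5) to 0.327% (HT) in GCB DLBCL lines with ZNF593 reads, with medians of 0.163% and 0.283%. All MCL lines were below all GCB DLBCL lines with ZNF593 reads, and only SU-DHL-8 of the ABC DLBCL lines lay inside the MCL range. No test was run on the share, since it is a score over the 13 mRNAs.

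**Figure D2:**
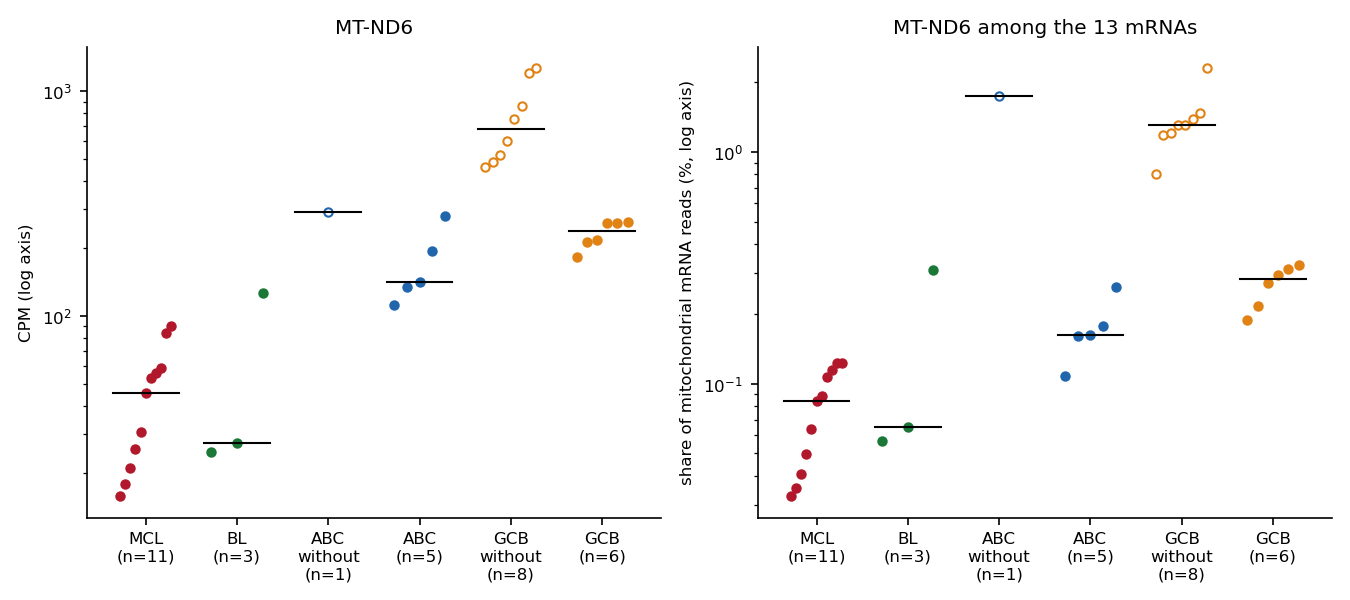
MT-ND6 in CPM (left, log axis) and as a percent of the reads of the 13 mitochondrial mRNAs (right, log axis). Dots are lines, open where the library has no ZNF593 reads, and horizontal lines are medians (45.6 CPM in MCL and 239 in GCB DLBCL with ZNF593 reads). The 11 MCL lines lie between 15.8 and 89.9 CPM, below every DLBCL line.

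Per length, MT-ND6 was the least abundant of the mRNAs. Over the 25 lines with ZNF593 reads its median level was 171 RPKM (CPM divided by the gene's length in kilobases), against 609 for MT-ATP8, the lowest heavy strand mRNA, and 12641 for MT-CO1, the highest. The rRNAs MT-RNR2 (16S) and MT-RNR1 (12S) had medians of 11495 and 5748 on the same scale. MT-ND6 was also the most variable mRNA over these lines, with a standard deviation of 1.39 log2 units of CPM against 0.50 to 0.73 for the 12 heavy strand mRNAs. When each gene was taken relative to the heavy strand mRNAs other than itself, these figures were 1.04 for MT-ND6 and 0.27 to 0.76 for the heavy strand mRNAs.

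The light strand tRNAs, like MT-ND6, were lower in MCL than in DLBCL lines, at far lower read numbers. Summed over the 8 genes they had 0.634 (Mino) to 4.69 (Jeko-1) CPM in MCL lines, with a median of 1.07. The sums were 1.27 in Ramos, 2.23 in Raji and 18.2 in Daudi. They were 9.22 to 13.01 in ABC DLBCL lines (median 10.1) and 15.9 to 23.7 in GCB DLBCL lines with ZNF593 reads (median 21.3). MCL, ABC DLBCL and GCB DLBCL lines did not overlap in this sum. Raji and Ramos lay in the MCL range and Daudi in that of GCB DLBCL.

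In their sum, the heavy strand tRNAs showed no such separation. Summed over 7 genes they had 2.22 (UPN1) to 26.3 (Jeko-1) CPM in MCL lines (median 8.50), 6.25 (Daudi) to 17.3 (Raji) in BL lines, 13.9 to 30.2 in ABC DLBCL lines (median 17.8) and 7.12 to 24.0 in GCB DLBCL lines with ZNF593 reads (median 14.8). Light strand genes thus gave 3.40% (Mino) to 46.2% (UPN1) of the tRNA reads in MCL lines, with a median of 15.1%. They gave 11.4% in Raji, 11.9% in Ramos and 74.4% in Daudi. The share ran from 28.7% to 47.8% in ABC DLBCL lines and from 48.2% to 70.4% in GCB DLBCL lines with ZNF593 reads. MT-TT, the threonine tRNA, made up most of the heavy strand sum in some lines, with 14.9 of 18.0 CPM in Mino and 22.1 of 30.2 in OCI-Ly10. Its part was smaller in others, with 5.23 of 14.1 in SU-DHL-8 and 0.888 of 2.22 in UPN1. The sum without MT-TT was not compared. All 6 heavy strand tRNAs tested had negative differences in MCL, with medians of -0.70 against ABC and -0.51 against GCB DLBCL. The table counts reads per gene, so mature tRNAs and their longer precursors cannot be told apart. As for MT-ND6, reads of light strand tRNAs and of heavy strand RNA across the same positions cannot be told apart either.

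**Figure D3:**
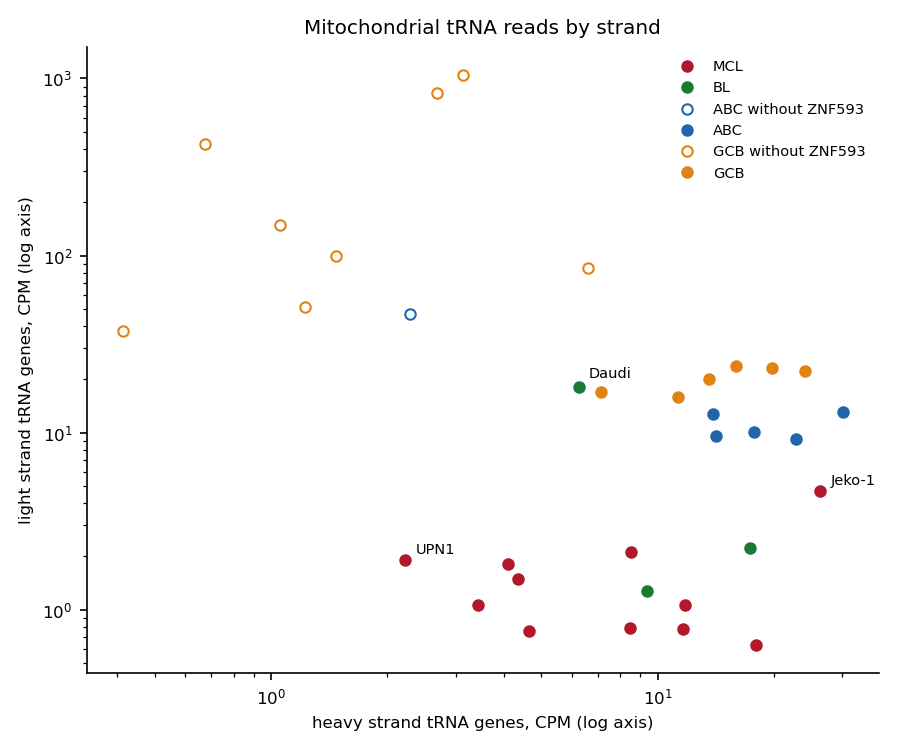
CPM of the 8 light strand tRNA genes (vertical, log axis) against the 7 heavy strand tRNA genes (horizontal, log axis) in 34 lines, open where the library has no ZNF593 reads. Lines with ZNF593 reads form bands by height, MCL at 0.634 to 4.69, ABC DLBCL at 9.22 to 13.01 and GCB DLBCL at 15.9 to 23.7, while they overlap along the horizontal axis.

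Between MCL and DLBCL, the smallest p-values among the mitochondrial genes tested belonged to light strand tRNAs. MT-TS1, a serine tRNA at MT:7446-7514, had 0.0607 to 0.266 CPM in MCL lines (median 0.126), 0.203, 0.303 and 2.39 in Ramos, Raji and Daudi, 1.21 to 1.43 in ABC DLBCL lines (median 1.32) and 1.91 to 3.42 in GCB DLBCL lines with ZNF593 reads (median 2.86). MT-TA, the alanine tRNA at MT:5587-5655, had 0.0389 to 0.832 in MCL lines (median 0.152), 0.152, 0.325 and 1.99 in Ramos, Raji and Daudi, 1.82 to 3.58 in ABC DLBCL lines (median 2.60) and 1.62 to 8.05 in GCB DLBCL lines with ZNF593 reads (median 6.23). MT-TQ, the glutamine tRNA at MT:4329-4400, had 0.0583 to 0.799 in MCL lines (median 0.320), 0.305, 0.703 and 7.89 in Ramos, Raji and Daudi, 2.46 to 3.96 in ABC DLBCL lines (median 3.40) and 4.19 to 7.51 in GCB DLBCL lines with ZNF593 reads (median 5.99). In all 3 genes every MCL line was below every DLBCL line with ZNF593 reads, though MT-TS1 entered the test only through other lines, as described below. These levels rest on few reads, since the MCL median was 12 reads for MT-TS1, 10 for MT-TA and 26 for MT-TQ.

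MT-TY, the tyrosine tRNA at MT:5826-5891, had 0 to 0.101 CPM in MCL lines (median 0.0368), against 0.320 to 1.72 in ABC DLBCL lines and 0.595 to 2.21 in GCB DLBCL lines with ZNF593 reads. No MCL line passed the filter on low values for MT-TY and 1 did for MT-TS1, so both entered the test through other lines and a difference from MCL was built into their selection. MT-TE, the glutamate tRNA at MT:14674-14742, had 0.0827 to 0.533 in MCL lines and 0.675 to 2.78 in GCB DLBCL lines with ZNF593 reads, without overlap. MT-TP, the proline tRNA at MT:15956-16023 and the first gene after the light strand promoter, had 0.117 to 2.23 in MCL lines and 1.98 to 5.96 in GCB DLBCL lines with ZNF593 reads, where Jeko-1 exceeded SU-DHL-5.

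Of the 30 genes, 27 passed the filter on low values, which asked for more than 1 log2 unit above the table's lowest value in at least 3 of 34 lines. MT-TL1, MT-TN and MT-TC, tRNAs for leucine, asparagine and cysteine, did not pass, with 24, 133 and 89 reads over all lines. In MCL against ABC DLBCL 6 of the 27 were lower at a limma adjusted p under 0.05 and none higher, against 0.356% of all 22167 genes tested that were lower. The 6 were 5 of the 7 light strand genes tested (MT-ND6, MT-TQ, MT-TA, MT-TY and MT-TS1) and 1 of the 20 heavy strand genes, the aspartate tRNA MT-TD. In MCL against GCB DLBCL 8 were lower and none higher, against 1.27% of all genes tested that were lower. They were the 7 light strand genes tested and again MT-TD. MT-TY and MT-TS1, which reached the filter's level in fewer than 3 MCL lines and so were tested only through other lines, belong to both counts and add no support to them. Among the 23 genes that reached it in at least 3 MCL lines, 4 were lower against ABC DLBCL (3 of 5 light strand and 1 of 18 heavy strand genes) and 6 against GCB DLBCL (5 of 5 and 1 of 18).

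The fitted differences of these tRNAs were larger against GCB than against ABC DLBCL, and the difference between the contrasts was not tested as such. Against GCB DLBCL, MT-TS1 gave -1.998 ± 0.16 (limma adjusted p = 1.17e-07), MT-TA -2.58 ± 0.27 (9.61e-06), MT-TQ -2.44 ± 0.27 (1.98e-05) and MT-TY -1.53 ± 0.20 (0.000159). MT-TS1 and MT-TY were tested only through lines other than MCL, so their p-values add no support. By p-value MT-TA and MT-TQ ranked 6th and 7th of all genes tested. MT-TE gave -1.15 ± 0.18 (0.00113) and MT-TP -1.56 ± 0.29 (0.00552). Against ABC DLBCL, MT-TS1 gave -1.34 ± 0.17 (limma adjusted p = 0.000291), MT-TA -1.88 ± 0.29 (0.00200), MT-TQ -1.88 ± 0.29 (0.00200) and MT-TY -1.25 ± 0.21 (0.00575). The log2 scale of the table compresses low counts, and the ratios of the median levels of GCB DLBCL over MCL were 40.8 for MT-TA, 32.5 for MT-TY, 22.7 for MT-TS1 and 18.7 for MT-TQ. These ratios rest on few MCL reads, for MT-TY on a median of 4 (0 to 11).

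MT-TD, the called heavy strand tRNA, lies at MT:7518-7585 beside MT-TS1. It had 0.0671 to 0.612 CPM in MCL lines (median 0.266), 0.871 to 1.74 in ABC DLBCL lines (median 1.22) and 0.310 to 2.54 in GCB DLBCL lines with ZNF593 reads (median 1.59). The log2 difference was -1.02 ± 0.24 against ABC DLBCL (limma adjusted p = 0.0408) and -1.03 ± 0.22 against GCB DLBCL (limma adjusted p = 0.0137). The call against ABC DLBCL was lost in 13 of the 25 fits without a line, where the adjusted p reached 0.0948.

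The heavy strand mRNAs were mostly lower in MCL than in DLBCL, but none passed the threshold. Against ABC DLBCL 11 of the 12 had negative differences, from -1.26 to 0.10 with a median of -0.92, and 0 were called by limma, with 7 at an unadjusted p under 0.05 and 5 called lower by limma-voom. Against GCB DLBCL 11 of 12 were again negative, from -0.94 to 0.11 with a median of -0.65, and 0 were called by limma, with 6 at an unadjusted p under 0.05 and 3 called lower by limma-voom. The median over all genes tested was 0.00 in both contrasts. The exception in both was MT-ND3, a complex I subunit.

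In complex I, MT-ND1 had 1767 to 5864 CPM in MCL lines (median 3115), 3019 to 7960 in ABC DLBCL lines (median 6419) and 4433 to 5853 in GCB DLBCL lines with ZNF593 reads (median 4754). Its log2 difference was -0.98 ± 0.33 against ABC DLBCL (limma adjusted p = 0.167) and -0.65 ± 0.31 against GCB DLBCL (limma adjusted p = 0.284). MT-ND4, the most read complex I gene, had 5832 to 10914 in MCL lines, 15508 to 20077 in ABC DLBCL lines and 12571 to 18877 in GCB DLBCL lines with ZNF593 reads. It was the single heavy strand mRNA whose MCL values lay below both DLBCL groups without overlap on the log2 scale. Lack of overlap in that direction held for 7 of the 27 genes against ABC DLBCL, beside 0.244% of all genes, and for 7 against GCB DLBCL, beside 0.171%, with MT-TY and MT-TS1 in both counts.

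Complex III and complex IV mRNAs overlapped between MCL and DLBCL. MT-CYB, cytochrome b, had 2298 to 10924 CPM in MCL lines (median 4741), 7709 to 12389 in ABC DLBCL lines and 6214 to 10361 in GCB DLBCL lines with ZNF593 reads, with log2 differences of -1.12 ± 0.33 against ABC DLBCL (limma adjusted p = 0.117) and -0.87 ± 0.32 against GCB DLBCL (limma adjusted p = 0.140). MT-CO1, the catalytic core of complex IV, had a median of 13630 in MCL lines, 24754 in ABC DLBCL lines and 23584 in GCB DLBCL lines with ZNF593 reads. Its differences were -0.90 ± 0.45 (limma adjusted p = 0.382) and -0.74 ± 0.42 (limma adjusted p = 0.394). MCL lines spanned 7460 (UPN1) to 23760.3 (Jeko-1) for this gene and so reached into both DLBCL groups.

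In complex V, MT-ATP6 had 1903 to 5023 CPM in MCL lines (median 3697), 4219 to 7869 in ABC DLBCL lines and 4366 to 6005 in GCB DLBCL lines with ZNF593 reads. Its differences were -0.77 ± 0.23 against ABC DLBCL (limma adjusted p = 0.120) and -0.60 ± 0.22 against GCB DLBCL (limma adjusted p = 0.142). The rRNA MT-RNR2 had medians of 11693 in MCL, 22924 in ABC DLBCL and 22108 in GCB DLBCL lines with ZNF593 reads, with differences of -0.98 ± 0.51 (limma adjusted p = 0.406) and -0.84 ± 0.48 (limma adjusted p = 0.395). The groups overlapped for both genes.

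**Figure D4:**
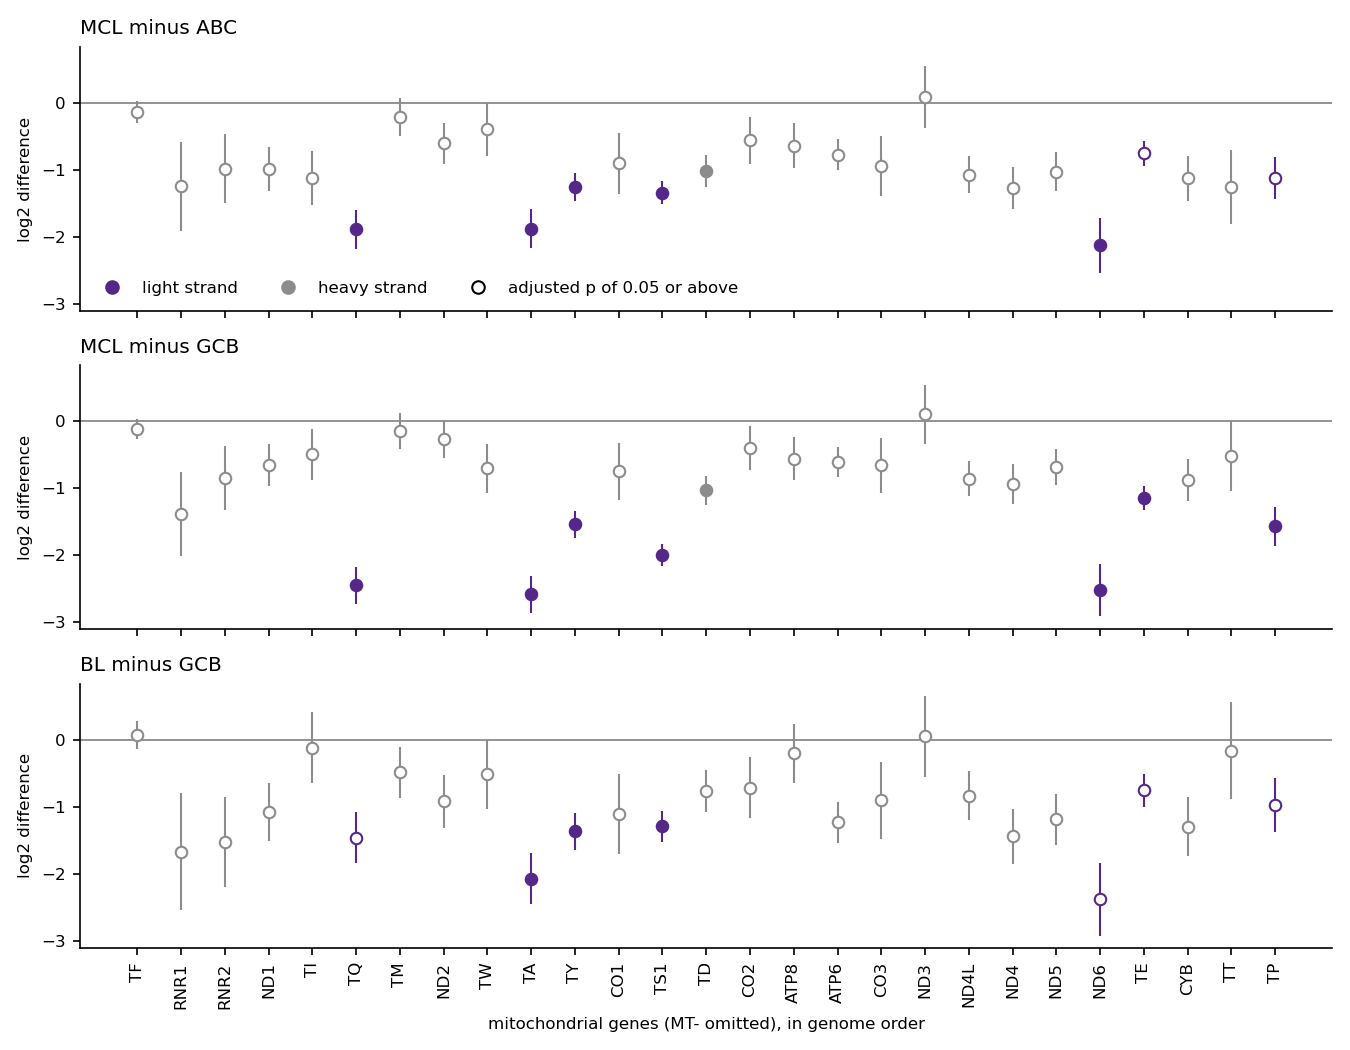
Fitted log2 differences with their standard errors for the 27 genes tested, in genome order, for MCL minus ABC DLBCL (6 called), MCL minus GCB DLBCL (8 called) and BL minus GCB DLBCL (3 called). Filled points have a limma adjusted p under 0.05, purple points are light strand genes and grey points heavy strand genes. In MCL minus GCB DLBCL the 7 purple points are filled, among them MT-TS1 and MT-TY, which passed the filter only through other lines, against 1 of 20 grey points.

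No gene of the 27 was called between MCL and BL lines. By limma 0 were called in either direction, beside 1.54% of all genes tested, with 3 at an unadjusted p under 0.05 and 0 called by limma-voom. MT-ATP6 gave 0.63 ± 0.28 (limma adjusted p = 0.291), MT-RNR2 0.68 ± 0.62 (limma adjusted p = 0.682) and MT-CO1 0.37 ± 0.54 (limma adjusted p = 0.831). MT-ND1 and MT-CYB each gave 0.43 ± 0.40 (limma adjusted p = 0.694 for each). The light strand genes were all negative, from -0.98 to -0.14. With Daudi left out MT-ND6 turned from -0.14 to 0.44.

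BL against GCB DLBCL called 3 of the 27 genes lower and none higher, beside 0.0722% of all genes tested. All 3 were light strand tRNAs, namely MT-TA (-2.07 ± 0.38, limma adjusted p = 0.0182), MT-TS1 (-1.29 ± 0.23, limma adjusted p = 0.0145) and MT-TY (-1.37 ± 0.28, limma adjusted p = 0.0384). MT-TA and MT-TS1 reached the filter's level in 2 of 3 BL lines and MT-TY in 1, so none of the calls is independent of the filter. Without Raji, and likewise without Ramos, the count was 0. The MT-TY call was lost in 15 of 25 fits without a line and under each of the 8 other settings tried, that of MT-TA under 3 of the 8 and that of MT-TS1 under 4, where its sign turned with all lines pooled. MT-TS1 in Daudi (2.39 CPM) lay inside the GCB DLBCL range, and so did MT-TA (1.99) on this scale. MT-ND1, MT-CYB, MT-CO1, MT-ATP6 and MT-RNR2 gave -1.08 ± 0.43, -1.30 ± 0.44, -1.11 ± 0.59, -1.23 ± 0.31 and -1.53 ± 0.67, with limma adjusted p-values between 0.138 and 0.607.

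BL against ABC DLBCL called MT-ATP6 alone, lower by 1.40 (-1.40 ± 0.32, limma adjusted p = 0.0436), beside 0.262% of all genes tested that were lower. MT-ATP6 had 1771, 2540 and 2936 CPM in Raji, Ramos and Daudi, against 4219 to 7869 in ABC DLBCL lines, without overlap. The call was lost in 15 of the 25 fits that left out a line. MT-ND1 gave -1.41 ± 0.45 (limma adjusted p = 0.159), MT-CYB -1.55 ± 0.45 (limma adjusted p = 0.127), MT-CO1 -1.27 ± 0.61 (limma adjusted p = 0.380) and MT-RNR2 -1.66 ± 0.70 (limma adjusted p = 0.307).

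No gene of the 27 was called between ABC and GCB DLBCL lines. By limma 0 were called, beside 0.226% of all genes tested in either direction, with 2 at an unadjusted p under 0.05 and 0 called by limma-voom. The 6 light strand tRNAs tested were all negative, from -0.71 to -0.28, and the 12 heavy strand mRNAs all positive, up to 0.35. MT-ND1 gave 0.33 ± 0.37 (limma adjusted p = 0.858), MT-CYB 0.25 ± 0.38 (limma adjusted p = 0.920) and MT-CO1, MT-ATP6 and MT-RNR2 between 0.13 and 0.16 (adjusted p of 0.929 or more). With the kind of library as a covariate in all 34 lines, MT-ND1, MT-CYB, MT-CO1, MT-ATP6 and MT-RNR2 turned negative, between -0.45 and -0.08.

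The split of mRNA reads between complexes ranged widely among MCL lines and overlapped between pathologies. Complex I genes took 28.6% to 43.5% of the mRNA reads in MCL lines (median 34.6%), 30.7% to 38.2% in BL lines, 34.6% to 44.5% in ABC DLBCL lines and 34.3% to 39.6% in GCB DLBCL lines with ZNF593 reads. Complex IV genes took 35.0% (UPN1) to 59.2% (Jeko-1) in MCL lines, 47.3% to 55.0% in BL lines, 41.6% to 49.7% in ABC DLBCL lines and 45.1% to 49.2% in GCB DLBCL lines with ZNF593 reads. The MCL range overlapped each of the others for both complexes. Complex V genes took 4.07% (Jeko-1) to 10.6% (UPN1) in MCL lines and between 4.82% and 8.26% in the other lines with ZNF593 reads.

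Some lines carried unusual proportions of single mRNAs. UPN1 gave 10.4% of its mitochondrial mRNA reads to MT-ATP6 and 6.40% to MT-CO3, whereas Mino gave 25.0% to MT-CO3. MD903 had the lowest shares of MT-ND1 (3.601%), MT-ND2 (3.17%) and MT-ND3 (0.144%) among the 25 lines with ZNF593 reads. GRANTA519 had the highest shares of MT-ND1 (10.1%) and MT-ND2 (10.4%). Each rests on 1 library, and a sequence variant of the line in these genes was not examined.

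Of the 4 lines not marked as re-analysed, 3 stood apart from the other MCL and BL lines in the rRNAs. There were 14.3 MT-RNR2 reads per MT-RNR1 read in MAVER-1, 11.3 in Daudi and 10.1 in HBL-2, against 3.68 in UPN1, the fourth such line, 2.75 to 4.76 in the re-analysed MCL lines, 1.79 in Raji and 2.13 in Ramos. High ratios were not particular to unmarked lines, since re-analysed GCB DLBCL libraries without ZNF593 reads had 5.22 (OCI-Ly7) to 21.5 (SU-DHL-6). MT-RNR1 had 366 CPM in HBL-2 and 409 in Daudi, against medians of 3151 in MCL and 4065 in BL lines. Daudi also had 460 CPM of MT-ATP8, against 60.3 in Raji and 82.7 in Ramos. MT-ND4L likewise had 987 in Daudi, 275 in Raji and 311 in Ramos. The part of the library in these values was not tested.

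**Figure D5:**
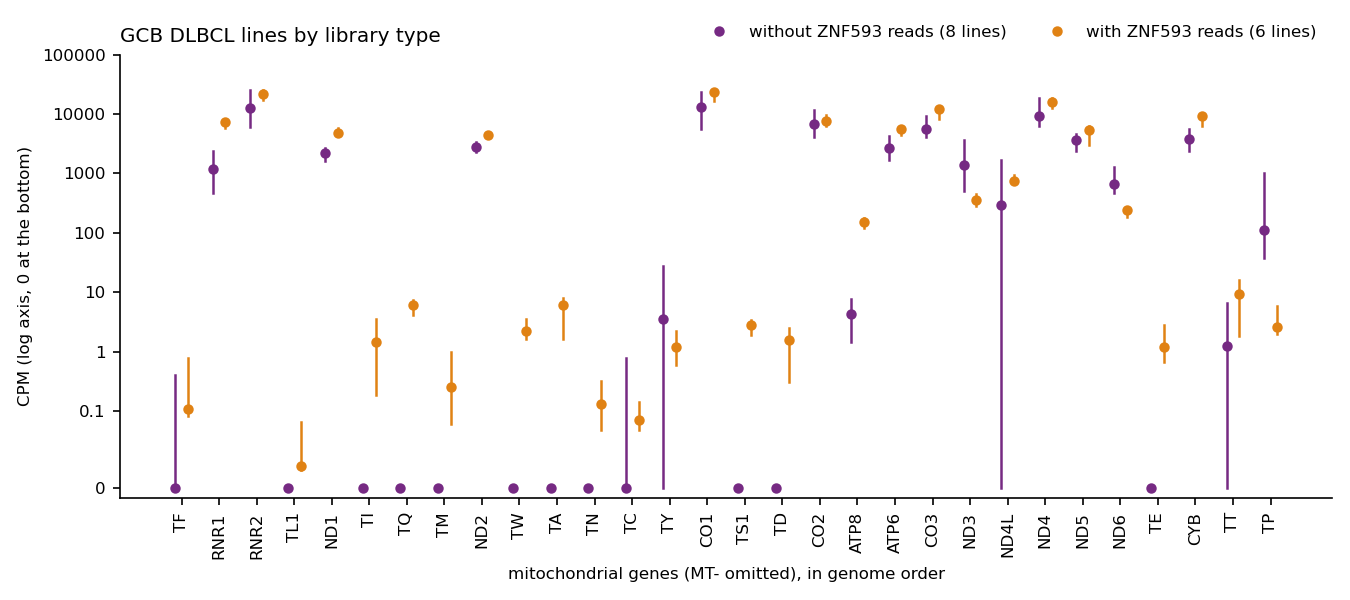
CPM of the 30 genes in GCB DLBCL lines, in genome order, with 0 drawn at the bottom of a log axis. Dots are medians and bars run from the lowest to the highest line, for 8 libraries without ZNF593 reads (purple) and 6 with them (orange). MT-TP stands at a median of 113 against 2.64 and MT-ATP8 at 4.28 against 152, and 10 tRNAs sit at 0 in all 8 purple libraries, each with a median above 0 in the orange ones.

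Within GCB DLBCL the 2 kinds of library differed in 24 of the 27 genes. Libraries without ZNF593 reads were lower in 21, beside 7.54% of all genes tested, and higher in 3, beside 14.2%. Without overlap, 14 genes lay below (3.16% of all genes) and 2 above (3.2%). In both counts of lower genes 8 were tRNAs with 0 reads in all 8 libraries without ZNF593 reads, which were tested only through other libraries. Among the 18 genes that reached the filter's level in at least 3 of these 8 libraries, 13 were lower and 3 higher. Kind of library and line cannot be told apart here, since each line has 1 library.

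The largest of these differences were those of the short genes MT-ATP8 and MT-TP, and that of the light strand mRNA MT-ND6 was smaller. MT-ATP8, 207 bases long and overlapping MT-ATP6 by 46 bases, had 1.47 to 7.85 CPM (median 4.28) in libraries without ZNF593 reads and 123 to 179 (median 152) in those with them, a log2 difference of -5.14 ± 0.35. MT-TP gave 5.08 ± 0.55, with 37.6 to 1011 CPM (median 113) in libraries without ZNF593 reads and 1.98 to 5.96 (median 2.64) in those with them. NU-DUL-1, the ABC DLBCL library without ZNF593 reads, had 46.4 for MT-TP and 0.441 for MT-ATP8. MT-ND6 was higher by 1.29 ± 0.39 (limma adjusted p = 0.0152), with 462 to 1263 CPM (median 676) in libraries without ZNF593 reads and 183 to 261 (median 239) in those with them. The groups did not overlap in MT-ATP8, MT-TP or MT-ND6.

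The third higher gene was MT-ND3, with 500 to 3707 CPM (median 1390) in libraries without ZNF593 reads and 282 to 457 (median 357) in those with them (1.55 ± 0.49, limma adjusted p = 0.0213). Its adjusted p was 0.0507 without NU-DHL-1. The rRNA MT-RNR1 fell by 2.94 (-2.94 ± 0.60, limma adjusted p = 0.000440), with 461 to 2373 CPM in libraries without ZNF593 reads and 5718 to 7435 in those with them, without overlap. MT-RNR2 fell by 1.13 (-1.13 ± 0.41, limma adjusted p = 0.0441), so that 5.22 to 21.5 MT-RNR2 reads came with each MT-RNR1 read in libraries without ZNF593 reads, against 2.995 to 3.61 in those with them.

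Among the heavy strand mRNAs 10 of 12 were lower in libraries without ZNF593 reads, with a median of -1.20 over the 12 against 0.07 over all genes tested. MT-CYB gave -1.61 ± 0.28, MT-ND1 -1.56 ± 0.29, MT-ATP6 -1.38 ± 0.23 and MT-CO1 -1.24 ± 0.33, all with limma adjusted p-values of 0.00575 or less. MT-ND2, MT-CO3, MT-ND4 and MT-ND5 gave between -1.17 and -0.92. Under quantile normalization MT-RNR2 and MT-ND5 turned to 0.054 and 0.024, and MT-ND1, MT-ND2, MT-CO1, MT-ATP6, MT-CO3, MT-ND4 and MT-CYB kept their sign at -0.56 to -0.042 but were no longer called.

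MT-ND4L, a complex I subunit 297 bases long that overlaps MT-ND4 by 7 bases, split the libraries without ZNF593 reads. It had 0 reads in SU-DHL-6 and 6.85, 8.24 and 9.09 CPM in Karpas422, NU-DHL-1 and WSU-DLCL2. It had 589, 616, 1259 and 1663 in OCI-Ly7, OCI-Ly1, DOHH-2 and DB, and 690 to 934 in the 6 libraries with ZNF593 reads. The 4 low lines were the ones with MT-TY reads, at 20.2 in SU-DHL-6, 23.5 in Karpas422, 27.5 in NU-DHL-1 and 6.73 in WSU-DLCL2, whereas the other 4 had at most 0.314. The overall difference for MT-ND4L was -3.82 ± 1.09 (limma adjusted p = 0.0104).

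Reads were missing altogether for 10 tRNAs in the 8 GCB DLBCL libraries without ZNF593 reads, namely MT-TI, MT-TQ, MT-TM, MT-TW, MT-TA, MT-TS1, MT-TD and MT-TE, which were tested, and MT-TL1 and MT-TN, which did not pass the filter. These libraries held 27.7 M reads together, in which 0 reads allow up to 3 reads or 0.108 CPM over the group, counting error only. At the median level of libraries with ZNF593 reads, 172 reads of MT-TA, 166 of MT-TQ, 79.1 of MT-TS1 and 61.2 of MT-TW would have been counted. The levels were thus at least 57.4-fold lower for MT-TA, 55.3-fold for MT-TQ, 26.4-fold for MT-TS1, 20.4-fold for MT-TW, 14.7-fold for MT-TD, 13.2-fold for MT-TI, 11.1-fold for MT-TE and 2.31-fold for MT-TM. For MT-TN 3.62 reads and for MT-TL1 0.329 would have been counted, against a limit of 3, so that no bound is given for these genes. NU-DUL-1 also had 0 reads of each of the 10.

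MT-ND6 made up 0.805% (DB) to 2.30% (SU-DHL-6) of the mitochondrial mRNA reads in GCB DLBCL libraries without ZNF593 reads, against 0.188% to 0.327% in those with them. The share was 1.75% in NU-DUL-1. Every library without ZNF593 reads exceeded every library with them, of any pathology. The 30 genes together took 4.49% (OCI-Ly7) to 11.4% (WSU-DLCL2) of the reads in GCB DLBCL libraries without ZNF593 reads (median 7.05%) and 1.94% in NU-DUL-1.

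Nuclear genes of the same complexes were not called between pathologies. Of 75 nuclear subunit genes of complexes I, III, IV and V, limma called 0 in each of the 6 pathology contrasts, with 1 or 2 at an unadjusted p under 0.05 per contrast and 0 called by limma-voom. Their median differences lay between -0.12 and 0.10. Of all genes tested, limma called 0.356% lower in MCL against ABC DLBCL and 1.27% in MCL against GCB DLBCL. It called 0.0722% lower in BL against GCB DLBCL and 0.262% in BL against ABC DLBCL. In either direction it called 1.54% in MCL against BL and 0.226% in ABC against GCB DLBCL. A count of 0 of 75 lies near these shares. Between the kinds of library 34 of the 75 were lower and 1 higher, beside 7.54% and 14.2% of all genes tested, led by ATP5ME (-5.85 ± 0.46), UQCRQ (-4.24 ± 0.50) and COX8A (-4.16 ± 0.47), small subunits of complexes V, III and IV.

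Between pathologies, 2 nuclear genes that serve mitochondrial DNA and RNA were called. In the pathology contrasts limma and limma-voom called 0 of 10 mitochondrial DNA replication genes, with 0 to 2 at an unadjusted p under 0.05, and 0 of 9 mitochondrial transcription genes, with 0 or 1. For lists of this size, 0 calls lie near the shares of all genes called in these contrasts. Of 22 genes of mitochondrial RNA processing and stability, PDE12, which removes poly(A) tails from mitochondrial RNA, was lower in MCL than in GCB DLBCL (-0.74 ± 0.19, limma adjusted p = 0.0341), where 1.27% of all genes were lower. REXO2, an exonuclease that degrades short RNA in mitochondria, was lower in MCL than in BL (-1.91 ± 0.48, limma adjusted p = 0.0441), where 1.54% of all genes were called in either direction. No other gene of this list was called by limma in a pathology contrast. Libraries without ZNF593 reads, compared with those with them in GCB DLBCL, were lower in TOP1MT, the mitochondrial topoisomerase (-1.30 ± 0.43, limma adjusted p = 0.0259), and higher in POLG2, the accessory subunit of the mitochondrial DNA polymerase (0.92 ± 0.31, limma adjusted p = 0.0311). None of the 9 transcription genes was called there by limma or limma-voom, with 0 at an unadjusted p under 0.05. Of the 22 RNA processing and stability genes 5 were higher and 1 lower, beside 14.2% and 7.54% of all genes. HSD17B10, a subunit of mitochondrial RNase P, gave -1.27 ± 0.32 (limma adjusted p = 0.00335), and PNPT1, the mitochondrial polynucleotide phosphorylase, 0.87 ± 0.25 (limma adjusted p = 0.0114).

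Small structured RNAs of the nucleus, which like tRNAs are short, and histone mRNAs, only some of which lack long poly(A) tails, were set beside the tRNAs. Between the kinds of library 3 of 7 small structured RNAs were lower and none higher, led by SNORD3A (-3.84 ± 0.49, limma adjusted p = 4.01e-07), and 3 of 9 histone genes were lower and 1 higher, with a median of -1.37, beside 7.54% lower and 14.2% higher of all genes. Of 7 small structured nuclear RNAs tested, 1 was called between pathologies, RNU5A-1 in MCL against ABC DLBCL (-1.22 ± 0.27, limma adjusted p = 0.0348), where 0.356% of all genes were lower, and of 9 histone genes limma and limma-voom called 0, with 0 to 2 at an unadjusted p under 0.05. For 9 histone genes, 0 calls lie near the shares of all genes called between pathologies. The 13 small structured RNAs in the table summed to 7.13 to 50.4 CPM in MCL lines, 6.02 to 14.9 in BL lines, 12.96 to 30.9 in ABC DLBCL lines and 7.24 to 33.9 in GCB DLBCL lines with ZNF593 reads (median 14.8). In GCB DLBCL libraries without ZNF593 reads the sum ran from 2.64 to 181 (median 10.9), and it was 48.9 in NU-DUL-1. The kinds of library thus overlapped in this sum.

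Copies of mitochondrial genes in the nuclear genome can take or give reads, and how the authors' counting split such reads is not given in the sources used here. The table holds 61 of them, with 0.294 to 1.75 reads per 100 reads of the mitochondrial genes in a line. Of 27 tested, limma called 1 in the pathology contrasts, MTATP6P1 in BL against ABC DLBCL (-1.35 ± 0.26, limma adjusted p = 0.0180). There 0.262% of all genes were lower. At an unadjusted p under 0.05 were 15 in MCL against ABC DLBCL and 10 against GCB DLBCL (median differences -0.36 in both). In BL there were 13 against GCB DLBCL (median -0.37) and 14 against ABC DLBCL (median -0.41). MCL against BL and ABC against GCB DLBCL had 1 each. MTATP6P1 had 385 to 548 CPM in BL lines and 767 to 1412 in ABC DLBCL lines. MTCO1P12 had 909 in MD903 and 987 in Pfeiffer and at most 131 in every other line with ZNF593 reads. Levels of mitochondrial genes with near-identical copies, MT-ATP6 among them, are uncertain for this reason.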

How the data were processed

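The authors deposited a table of variance-stabilised read counts in log2 units for 31975 genes and 34 lines. The submitters' processing notes name STAR 2.5.3a, R 3.6.1, DESeq2 1.26.0 and GRCh38, without a role for each. The read counter, the annotation release, the strand setting and any gene filter are not given in the sources used here. The lowest value, 4.55, stands for 0 reads, and inverting the transform gave whole reads (tolerance 0.05) for 100% of values. These gave CPM, RPKM (gene lengths from RefSeq GRCh38.p14) and shares.

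Log2 values were tested with limma 3.58.1 (intensity trend, R 4.3.3). Genes had to exceed the table's minimum by over 1 log2 unit in 3 or more lines, which left 22167, and p-values were adjusted by Benjamini-Hochberg over them at a threshold of 0.05. Pathologies were compared in the 25 libraries with ZNF593 at or above 4.56, with 1 mean per pathology, and kinds of library in all 34 with 1 mean per pathology and kind. The log2 values carry the authors' size factors and CPM the library totals, so overlap can differ between them: the log2 of size factor over total, relative to the 25 libraries, had a median of 0.37 in GCB DLBCL libraries without ZNF593 reads and 0.00 in those with them. The fit was tested on simulated data. Descriptions used Python 3.11.15, numpy 2.4.6, pandas 2.3.3 and matplotlib 3.10.9.

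Members and gene lists were chosen with earlier results of these data known. Differences are given for each called gene and, in every comparison, for MT-ND6, MT-ND1, MT-CYB, MT-CO1, MT-ATP6 and MT-RNR2, and for at most 3 called genes per nuclear list. Alternatives were other scalings, filters, libraries, lines, limma-voom on the recovered reads, and leaving out each line. Marker genes of T cells summed to at most 166 CPM in any line, of myeloid cells to 5.88 and of fibroblasts to 467. One further B-cell marker is not reported here. Gene symbols were matched for 31574 identifiers, and sequences were not used here.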

Additional observations from a re-analysis of the deposited data

Results flagged for a closer look

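MT-ND6 made up 2.30% of the mitochondrial mRNA reads in SU-DHL-6, against 0.805% to 1.48% in the other 7 GCB DLBCL libraries without ZNF593 reads. Its gap to the next library was 0.549 of the group's range, which made it the 1 value set apart in 24 checks of a group's highest or lowest line. Chance sets apart about 1 in 20 such groups.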

How the results depend on the processing

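Other settings changed the number of genes called. In MCL against ABC DLBCL, 6 genes were called, 1 with all 34 lines pooled, 12 with median-centred libraries, 13 by limma-voom and 4 to 8 without each line. In MCL against GCB DLBCL, 8 were called, 4 when pooled (3 lower and 1 higher) and 13 when median-centred. There 11 were called by limma-voom, and limma called 8 to 9 without each line. Pooling lost the calls of MT-TQ, MT-TA, MT-TS1 and MT-TE there, and library kind as a covariate those of MT-TY and MT-TP. Against ABC DLBCL, pooling lost the calls of MT-TQ, MT-TA, MT-TS1, MT-TY and MT-TD, and the covariate that of MT-TY. In MCL against BL, 0 were called, 2 when median-centred, 2 under quantile normalization and 0 to 1 without each line. In ABC against GCB DLBCL, 0 were called and 0 to 1 without each line. In BL against GCB DLBCL, 3 were called, 1 when pooled, 0 when median-centred, 1 under quantile normalization, 5 without a filter and 0 to 4 without each line. In BL against ABC DLBCL, 1 was called, 0 when pooled, with library kind as a covariate, when median-centred or under quantile normalization, 4 without a filter, 3 by limma-voom, 4 in re-analysed lines alone and 0 to 3 without each line. Between the kinds of library, 24 were called, 16 under quantile normalization and 22 to 24 without each line. Median-centring moved the median of all genes to -0.20 in MCL against ABC DLBCL, -0.26 against GCB DLBCL and -0.38 against BL, and the calls of all genes in MCL against GCB DLBCL to 279 higher and 787 lower, beside 346 higher and 282 lower. It moved that median to 0.11 in BL against GCB DLBCL, 0.18 in BL against ABC DLBCL and -0.14 between the kinds of library, where limma-voom gave 0.58.

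The median mitochondrial share of MCL lines was 8.68% in re-analysed lines alone. Over all lines with ZNF593 reads, the median share without rRNA was 5.12% in MCL, 10.4% in ABC DLBCL, 9.19% in GCB DLBCL and 4.11% in BL. Per kilobase, the MT-ND6 share of mRNA had medians of 0.167% in MCL, 0.328% in ABC DLBCL, 0.564% in GCB DLBCL and 2.29% in GCB DLBCL libraries without ZNF593 reads.

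Signs turned when pooled in MCL against GCB DLBCL for MT-ND1 (0.24), MT-TD (0.090), MT-ATP6 (0.18) and MT-CYB (0.053), and in BL against GCB DLBCL for MT-TS1 (0.24). In MCL against BL they turned for MT-CO1 when median-centred (-0.055), for MT-ND6 in re-analysed lines (0.75), without Daudi (0.44) and without MAVER-1 (range without each line -0.43 to 0.44), and for MT-CYB without Daudi (range -0.0020 to 0.81). In ABC against GCB DLBCL the covariate gave -0.45 for MT-RNR2, -0.19 for MT-ND1, -0.25 for MT-CO1, -0.35 for MT-ATP6 and -0.077 for MT-CYB, quantile normalization -0.0940 for MT-CO1 and -0.049 for MT-ATP6, and the fit without OCI-Ly10 -0.033 for MT-RNR2 (range without each line -0.033 to 0.29). Between the kinds of library, quantile normalization gave 0.054 for MT-RNR2 and 0.024 for MT-ND5. The cause was not tested. Of the other values of single genes, 454 kept direction and side of the threshold under these settings, 42 lost and 15 gained a call. No paired analysis was possible, since the 34 lines are different lines with 1 library each. Libraries of 2.55 to 4.84 M reads limit what can be seen of the tRNAs.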
